A study of Mus musculus with 6 samples.

Results

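The genes that build and load MHC class I molecules were followed in CD8+ T cells with little surface CD44, from wild-type mice and mice with the sanroque mutation. The set held 10 listed genes: the light chain gene B2m, the classical heavy chain genes H2-K1 and H2-D1, the peptide transporter genes Tap1 and Tap2, the loading genes Tapbp, Tapbpl and Calr, the trimming peptidase gene Erap1 and the transactivator gene Nlrc5. A gene was read from a probe set that the platform annotation gives exactly 1 symbol, taking the one with the highest mean log2 level where there were several. By this rule 8 of the 10 genes were found among 19938 genes in all, and H2-K1 and H2-D1 were not, because the 2 probe sets that carry their names are listed under both.

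Each group held 3 Affymetrix arrays, one for each sample. The labels call the samples biological replicates and do not say whether mice were pooled, so p-values measure the spread between these samples. One group was wild type (Roquin+/+) and the other homozygous for the sanroque allele of Roquin (Roquinsan/san). All animals were 10 weeks old and on the C57BL/6 background, and the sanroque allele is a germline point mutation, not limited to T cells. The CD44-low cells were sorted from suspensions of spleen and lymph node, and the labels name no treatment in either group. The comparison bears on how transcript levels of such cells differ when Roquin, an RNA-binding protein that shortens the life of its target mRNAs, carries this mutation.

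MHC class I molecules show peptides from inside the cell to CD8+ T cells. The proteasome cuts the peptides, the TAP transporter moves them into the endoplasmic reticulum, and ERAP1 trims them there. Tapasin, calreticulin and their partners hold the empty heavy chain with beta-2 microglobulin until a peptide fits. In lymphocytes much of the transcription of this pathway depends on NLRC5, a protein that does not bind DNA itself but joins factors on a composite promoter element, the SXY module, and the genes also respond to interferons.

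Arrays that stood apart were looked for first. Rc3h1, which encodes Roquin, read 9.93 to 10.11 on wild-type and 9.98 to 10.30 on sanroque arrays, and a point mutation need not change this level, so it does not check the labels. Cd8a read 12.99 to 13.05 (log2 intensity) on all 6 arrays, and 0 of the 6 measured T cell markers rose and 1, Cd3d, fell, by 0.52 on the log2 scale. All 6 had a negative fold, as did 12265 of all 19938 genes. The summed linear intensity of the 6 was 34821 to 36081 in wild type and 32032 to 32824 in sanroque, with no overlap. The B cell and myeloid marker lists, of cells outside the gate, were higher in sanroque. The median level of 10 B cell markers lay between 6.45 and 7.79 on wild-type arrays and between 8.54 and 8.97 on sanroque arrays, and 6 of the 10 passed the test given below. Their summed linear intensity was 1369 to 2768 in wild type and 3749 to 4815 in sanroque. For 14 myeloid markers the median lay between 5.94 and 6.58 and between 8.36 and 8.69, and 13 passed, with summed intensities of 903 to 1603 and 7991 to 12602. The values have a background floor, so no marker reads 0. Wild type replicate 2 had the highest B cell (7.79) and myeloid (6.58) medians of its group. Sanroque replicate 1 read 11.20 for Xist, the RNA of the inactive X chromosome of female cells, where the other 5 arrays read 4.02 to 4.17. These 2 arrays are in doubt below, and the log2 folds of the measured genes are given with and without both. B cells and myeloid cells also express the class I genes, and in these bulk samples more cells of a type and more RNA per cell cannot be told apart.

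Of the 8 measured genes, Nlrc5 and Tap1 rose in sanroque cells and 0 fell, while 6 did not pass the test. The test was limma with Benjamini-Hochberg adjustment over all 19938 genes, and its adjusted p had to be below 0.05 ("limma adjusted p" below). Of all genes 3.26% were called higher and 2.51% lower, 5.77% together. An unadjusted p below 0.05 was reached by 4 of the 8 genes, all higher, where 8.16% of all genes did so higher and 10.7% lower. The fold was positive in all 8, beside 7673 of all 19938 genes, with a median log2 fold of 0.24 against -0.03 over all genes. The 3 sanroque arrays all lay above the 3 wild-type arrays in 5 of the 8 genes (Nlrc5, Tap1, Tap2, Tapbp and Erap1), where 9.46% of all genes did so. The median of the genes' shifts from their wild-type means was 0.16, 0.36 and 0.35 in sanroque replicates 1 to 3, and it lay between -0.05 and 0.04 on the wild-type arrays. Without both arrays in doubt the median log2 fold was 0.33 and 1 gene, Nlrc5, was called. The log2 folds without both, beside those of all arrays given below, were 1.13 for Nlrc5, 0.55 for Tap1, 0.31 for Tap2, 0.48 for Tapbp, 0.16 for Tapbpl, 0.24 for Calr, 0.35 for Erap1 and 0.11 for B2m.

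**Figure D1:**
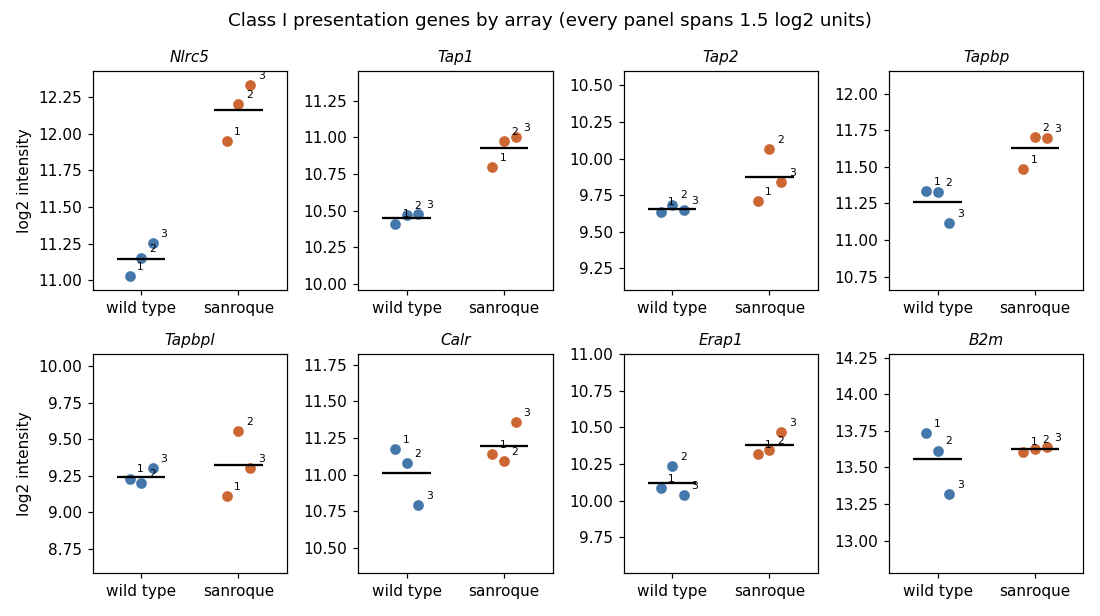
Log2 intensity of the 8 measured class I presentation genes on each array, with wild type in blue, sanroque in orange, the replicate number beside each point and the group mean (n = 3) as a line. The sanroque points lie above all wild-type points for Nlrc5, Tap1, Tap2, Tapbp and Erap1, and the groups overlap for Tapbpl, Calr and B2m.

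The transactivator gene Nlrc5 had the largest fold of the 8. Its log2 levels on arrays 1, 2 and 3 were 11.03, 11.15 and 11.26 for wild type against 11.95, 12.20 and 12.34 for sanroque, and all values below come in this order. The gap between the groups was wider than the range within either. The mean went from 11.14 ± 0.11 to 12.16 ± 0.20 (SD, n = 3 each), a 2.03-fold higher level with a 95% confidence interval of 1.69 to 2.44 (log2 fold 1.02 ± 0.11, SE; limma adjusted p = 0.00537). It passed with each array left out in turn, with log2 folds of 0.93 to 1.13 and limma adjusted p of 0.00631 to 0.0350, and without both arrays in doubt (1.13, limma adjusted p = 0.0196).

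Nlrc5 is covered by 19 probe sets with this symbol alone, and all 19 had a positive fold, beside 7673 of all 19938 genes. On 18 of them the sanroque arrays all lay above the wild-type arrays, beside 9.46% of all genes. These 2 shares were counted over genes and not over all probe sets. Tested one probe set at a time over all 35399 probe sets, 13 of the 19 passed, where 1.20% of all probe sets were called higher and 1.60% in either direction. Log2 folds ran from 0.27 to 1.23 with a median of 0.87. The weakest, probe set 10574163, read 9.64, 9.75 and 9.49 for wild type against 9.70, 9.88 and 10.13 for sanroque and did not pass (limma adjusted p = 0.422). The strongest, 10574135, read 8.53, 8.92 and 8.60 for wild type against 9.68, 9.99 and 10.06 for sanroque (limma adjusted p = 0.0249). The probe sets share the same RNA and are not replicates. With the mean of the 19 in place of the brightest one, the log2 fold of the gene was 0.84 ± 0.09 (SE; limma adjusted p = 0.00422).

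**Figure D2:**
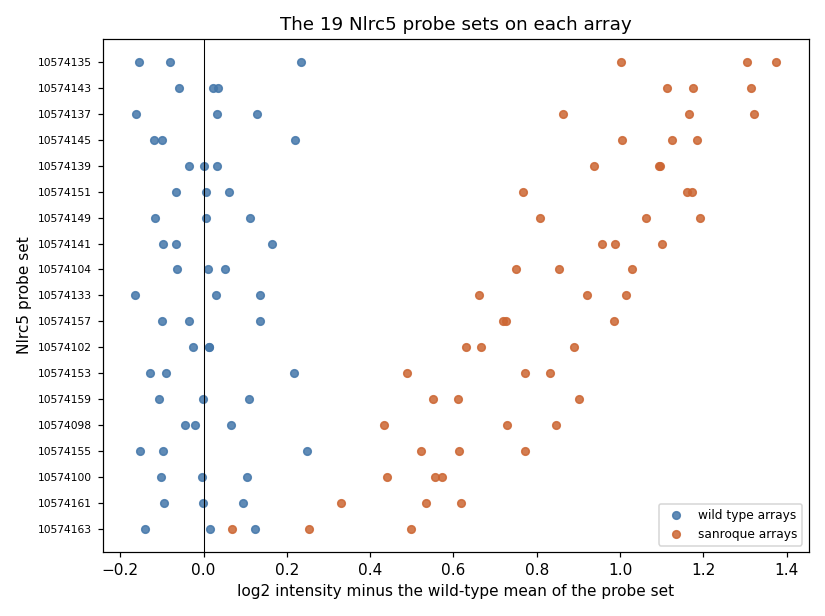
Log2 intensity of the 19 Nlrc5 probe sets on each array minus the wild-type mean of that probe set, ordered by fold, with wild-type arrays in blue and sanroque arrays in orange. The orange points lie to the right of all blue points in 18 probe sets, beside 9.46% of all genes, and the probe sets are not replicates. The difference in means runs from 0.27 at the bottom to 1.23 at the top.

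Tap1 encodes one subunit of the transporter that carries peptides into the endoplasmic reticulum. It read 10.41, 10.47 and 10.47 for wild type against 10.80, 10.98 and 11.00 for sanroque. Sanroque replicate 1 was the lowest of its group and still above every wild-type array. The level was 1.39-fold higher, with a 95% confidence interval of 1.23 to 1.57 (log2 fold 0.47 ± 0.08, SE; limma adjusted p = 0.0187). This call was close to the threshold. Leaving out wild type replicate 1, wild type replicate 2 or sanroque replicate 2 took the limma adjusted p to 0.101, 0.0577 and 0.0773, and leaving out both arrays in doubt took it to 0.0601. The log2 fold was 0.44 to 0.54 with 1 array left out and 0.55 without both.

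Tap2 encodes the other transporter subunit. It read 9.64, 9.69 and 9.65 for wild type against 9.71, 10.06 and 9.84 for sanroque. The groups do not overlap, but sanroque replicate 1 lay only just above wild type replicate 2. The log2 fold was 0.21 with a 95% confidence interval of -0.01 to 0.44 (limma adjusted p = 0.298).

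Tap1 lies between the immunoproteasome subunit genes Psmb9 and Psmb8 in the mouse MHC, and Tap2 follows Psmb8 in the order of protein-coding genes. Psmb9 read 11.05, 10.93 and 11.06 for wild type against 10.97, 11.22 and 11.40 for sanroque, with overlapping groups (log2 fold 0.19, 95% confidence interval -0.08 to 0.45). Psmb8 read 10.55, 10.51 and 10.22 for wild type against 10.38, 10.55 and 10.52 for sanroque, also overlapping (0.05, -0.19 to 0.30). Neither passed (limma adjusted p = 0.485 and 0.893). The difference of Tap1 from each neighbour, taken within each array, was higher in all 3 sanroque arrays than in any wild-type array. It was higher by 0.29 on the log2 scale for Psmb9, 0.42 for Psmb8 and 0.26 for Tap2. Each had an exact two-sided permutation p = 0.10 (n = 3 each), not adjusted for the 4 such comparisons made, B2m included. That is the smallest value this design allows, so p below 0.05 was out of reach. Each difference contains the fold of Tap1, which was already called in these arrays, so it gives no separate support for that call.

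The light chain gene B2m read 13.74, 13.62 and 13.31 for wild type against 13.61, 13.63 and 13.64 for sanroque. The sanroque arrays were nearly equal and lay inside the wild-type range. The log2 fold was 0.07 with a 95% confidence interval of -0.19 to 0.33 (limma adjusted p = 0.862), and its sign turned without wild type replicate 3 (-0.051). The difference of Tap1 from B2m within an array was higher by 0.41 in sanroque (exact two-sided permutation p = 0.10, n = 3 each, not adjusted). It too contains the called fold of Tap1.

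The classical heavy chains could not be read apart. The annotation lists 2 probe sets under H2-K1, LOC547349 and H2-D1 together, so their values belong to the mixture and to neither gene. One, 10450075, read 13.23, 13.13 and 13.12 for wild type against 13.04, 13.18 and 13.20 for sanroque. The other, 10444780, read 12.61, 12.56 and 12.55 for wild type against 12.56, 12.65 and 12.69 for sanroque. The groups overlapped on both, with log2 folds of -0.02 (95% confidence interval -0.20 to 0.16) and 0.06 (-0.09 to 0.22), tested over all probe sets (limma adjusted p = 0.951 and 0.783). A shift in opposite directions of H2-K1 and H2-D1 would not show here.

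The DNA just before annotated gene starts is shown for the light chain, the heavy chains, Tap1 and Tapbp. The SXY module of class I genes lies there. RefSeq promoter sequences of build GRCm38.p6 were found for 7 of the 10 listed genes, all except Nlrc5, Tap2 and Tapbpl. Each line gives the 250 bases before the start that the promoter entry uses, 5′ to 3′ along the gene. The windows are chr2:122147437-122147686 (plus strand) for B2m, chr17:35262844-35263093 (plus) for H2-D1, chr17:34000348-34000597 (minus) for H2-K1, chr17:34187306-34187555 (plus) for Tap1 and chr17:33919228-33919477 (plus) for Tapbp. For H2-K1, which has 2 promoter entries, the window of the more upstream start is shown. It lies inside the annotated span of the gene, chr17:33996012-34000619, and not before its outer end. The same holds for the Erap1 window counted below, chr13:74639603-74639852, as that gene spans 74639573 to 74693205. Capitals mark TGACG (the core letters of the X2 box of the module) and CCAAT or its reverse complement ATTGG (letters of the Y box). They also mark the interferon-stimulated response element (GAAA, 2 free bases and GAAA again), and each motif was searched on both strands. A mark does not place a match in the module. The marked CCAAT of Tap1 lies upstream of its TGACG, and Tapbp has ATTGG but no TGACG. These motifs do not overlap one another, and only these exact letters were searched for and marked.
B2m: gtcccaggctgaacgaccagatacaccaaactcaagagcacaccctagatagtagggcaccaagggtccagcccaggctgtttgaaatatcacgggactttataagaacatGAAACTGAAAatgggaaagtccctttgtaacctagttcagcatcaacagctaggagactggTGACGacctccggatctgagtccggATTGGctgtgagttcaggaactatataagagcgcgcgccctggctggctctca
H2-D1: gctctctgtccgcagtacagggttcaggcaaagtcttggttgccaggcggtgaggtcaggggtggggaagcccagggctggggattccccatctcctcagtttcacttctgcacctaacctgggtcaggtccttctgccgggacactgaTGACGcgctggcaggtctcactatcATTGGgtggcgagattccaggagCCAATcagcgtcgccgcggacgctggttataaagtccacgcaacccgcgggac
H2-K1: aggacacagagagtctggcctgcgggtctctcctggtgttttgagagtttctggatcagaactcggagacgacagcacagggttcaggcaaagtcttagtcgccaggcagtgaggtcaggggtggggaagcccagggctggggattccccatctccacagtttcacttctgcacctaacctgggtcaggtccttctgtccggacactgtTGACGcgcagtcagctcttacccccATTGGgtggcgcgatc
Tap1: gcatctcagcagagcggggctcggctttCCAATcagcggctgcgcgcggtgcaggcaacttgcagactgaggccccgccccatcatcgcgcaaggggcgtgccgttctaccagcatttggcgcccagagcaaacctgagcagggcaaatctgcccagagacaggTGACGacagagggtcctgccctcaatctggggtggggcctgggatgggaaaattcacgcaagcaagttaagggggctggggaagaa
Tapbp: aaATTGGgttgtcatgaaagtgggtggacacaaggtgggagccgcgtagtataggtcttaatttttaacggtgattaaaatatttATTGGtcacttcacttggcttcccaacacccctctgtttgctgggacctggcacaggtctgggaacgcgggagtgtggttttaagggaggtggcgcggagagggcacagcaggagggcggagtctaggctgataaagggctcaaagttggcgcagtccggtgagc

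TGACG was found in B2m, H2-K1, H2-D1 and Tap1 and in 17.8% of all 32851 windows of this length. CCAAT, on either strand, was found in 6 of the 7 genes and in 33.8% of windows. The exact letters searched for the response element were in B2m alone and in 2.98% of windows. An element with other letters would be missed by this search, so the heavy chain and other windows are not shown to lack one. TTCNNNGAA, the gamma-activated site, was in 0 of the 7 genes and in 7.02% of windows. In B2m, H2-K1 and H2-D1 the letters ATTGG follow TGACG with 20 bases between them, a spacing noticed after the matches were seen. The same pair at the same spacing, on either strand, was in 30 windows, or 0.0913%. It was not in the Tap1, Tapbp, Erap1 or Calr windows. Tap1 has TGACG without ATTGG at this spacing. Pairs at other spacings or with inexact letters were not searched for, and the use of these promoters was not tested. A match describes letters, not a bound site. The Tap1 window and the window of Psmb9, which runs the other way from a start close by, share 225 bases, and the TGACG of Tap1 is the CGTCA of the Psmb9 window.

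Tapbp encodes tapasin, which bridges the transporter and the empty class I molecule. It read 11.33, 11.33 and 11.11 for wild type against 11.48, 11.70 and 11.70 for sanroque, with no overlap. The log2 fold was 0.37 with a 95% confidence interval of 0.14 to 0.59, and it did not pass over all genes (limma adjusted p = 0.0763). It passed in 3 of 16 alternative settings and not in the other 13. The 3 were quantile normalization (limma adjusted p = 0.0260), an intensity trend with robust variances (0.0463) and array weights (0.0118). A further 2 probe sets are listed under both Tapbp and the ribosomal protein gene Rps3a1 and were not used.

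Tapbpl, which encodes the tapasin-related editor TAPBPR, read 9.23, 9.20 and 9.30 for wild type against 9.11, 9.55 and 9.30 for sanroque. Its sanroque values enclosed the wild-type ones, with the spread set by replicates 1 and 2. Its log2 fold was 0.08 (95% confidence interval -0.19 to 0.35; limma adjusted p = 0.841) and -0.037 without sanroque replicate 2.

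Calr encodes calreticulin, the chaperone that holds glycosylated heavy chains during loading. It read 11.17, 11.08 and 10.79 for wild type against 11.14, 11.09 and 11.36 for sanroque, with wild type replicate 3 low, sanroque replicate 3 high and the other 4 arrays overlapping. The fold on the log2 scale was 0.18 (95% confidence interval -0.10 to 0.47; limma adjusted p = 0.534).

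Erap1 encodes the aminopeptidase that trims peptides to the length class I molecules bind. It read 10.08, 10.24 and 10.04 for wild type against 10.32, 10.35 and 10.47 for sanroque. The groups do not overlap, with wild type replicate 2 close below the lowest sanroque array. A log2 fold of 0.26 was measured (95% confidence interval 0.07 to 0.45), which did not pass over all genes (limma adjusted p = 0.127). It passed in only 2 of 16 alternative settings, quantile normalization (limma adjusted p = 0.0324) and array weights (0.0104).

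Of 62 other genes of the pathway, in 4 lists, 51 were measured. Of these 3 rose and 0 fell, beside 3.26% and 2.51% of all genes, and the median log2 fold was 0.11. All 3 were regulators. Of 22 regulators measured, Ciita, Stat2 and Ifnar2 rose and 19 did not pass. An unadjusted p below 0.05 (limma) was reached by 10 of the 22 with a positive fold and by 1 with a negative one. Over all genes the shares were 8.16% and 10.7%. Ciita encodes the class II counterpart of NLRC5 and read 5.64, 6.19 and 5.95 for wild type against 7.44, 7.06 and 7.69 for sanroque (log2 fold 1.47 ± 0.19, SE; limma adjusted p = 0.00937). Its groups do not overlap. The wild-type values of Ciita lie around the median of all genes and arrays, 5.90. They may hold background in part, so this fold is not an exact one. B cells express Ciita. In 5 of 5 MHC class II genes that mark antigen-presenting cells, all sanroque arrays lay above all wild-type arrays, beside 9.46% of all genes. Of the 5 class II genes 2 passed, called higher, beside 3.26% of all genes. The list median lay between 8.41 and 9.78 on wild-type arrays and 10.41 to 10.90 on sanroque arrays, and the part of these cells in the Ciita result was not tested.

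Stat2, which encodes a transcription factor of the type I interferon receptor, read 8.41, 8.51 and 8.45 for wild type against 9.01, 9.18 and 9.55 for sanroque (log2 fold 0.79 ± 0.13, SE; limma adjusted p = 0.0217). Ifnar2, which encodes a chain of that receptor, read 9.32, 9.52 and 9.26 for wild type against 9.90, 9.86 and 9.68 for sanroque (0.45 ± 0.10, SE; limma adjusted p = 0.0431). Neither gene had overlapping groups. Both calls were near the threshold. Stat2 no longer passed when any one of wild type replicates 1, 2 and 3 or sanroque replicate 2 was left out, with limma adjusted p of 0.0557 to 0.106, nor without both arrays in doubt (0.0548). Ifnar2 no longer passed when any one of wild type replicates 1 and 3 or sanroque replicates 1 and 2 was left out, with limma adjusted p of 0.0909 to 0.170, nor without both arrays in doubt (0.119). Without both arrays 1 of the 51 genes was called, Ciita.

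The other lists had 0 calls in limma. Beside the counts given next, 8.16% of all genes had an unadjusted p below 0.05 with a positive fold and 10.7% with a negative one. Of 9 measured heavy chain and class I-like genes, 2 had an unadjusted p below 0.05 with a positive fold and 1 with a negative one, around a median log2 fold of 0.01. The nonclassical heavy chain gene H2-T24 had the smallest p, with 9.72, 9.62 and 9.26 for wild type against 9.98, 9.98 and 10.27 for sanroque (log2 fold 0.54; limma adjusted p = 0.0729). H2-Q4 followed, with 11.45, 11.35 and 11.35 for wild type against 11.53, 11.70 and 11.79 for sanroque (0.29; limma adjusted p = 0.103). Both had groups that do not overlap. Of 10 loading and quality control genes, 5 had an unadjusted p below 0.05, each with a positive fold, and the median log2 fold was 0.19. Pdia3, the oxidoreductase that pairs with tapasin, read 11.36, 11.46 and 11.03 for wild type against 11.68, 11.85 and 11.70 for sanroque (0.46; limma adjusted p = 0.0778). Hspa5, the general chaperone of the endoplasmic reticulum, had a log2 fold of 0.38 (limma adjusted p = 0.103). Plasma cells carry much secretory machinery, and the median of 5 plasma cell markers lay between 5.69 and 6.34 on wild-type arrays and was 7.53 to 8.19 on sanroque arrays, with 4 passing. Their part in these values was not tested.

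Of 10 genes of peptide production and trimming, 0 passed. An unadjusted p below 0.05 (limma) was reached by 1, with a negative fold, beside 10.7% of all genes. The median log2 fold was 0.07 and the range -0.22 to 0.19. The lowest was Blmh, a cytosolic peptidase gene, with 9.27, 9.51 and 9.25 for wild type against 9.18, 9.16 and 9.03 for sanroque (limma adjusted p = 0.253). A further 10 probe sets carry several symbols with a listed gene among them, the 2 heavy chain and 2 Tapbp ones included. Of these 0 passed in limma and 1 had an unadjusted p below 0.05, and log2 folds ran from -0.15 to 0.27.

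**Figure D3:**
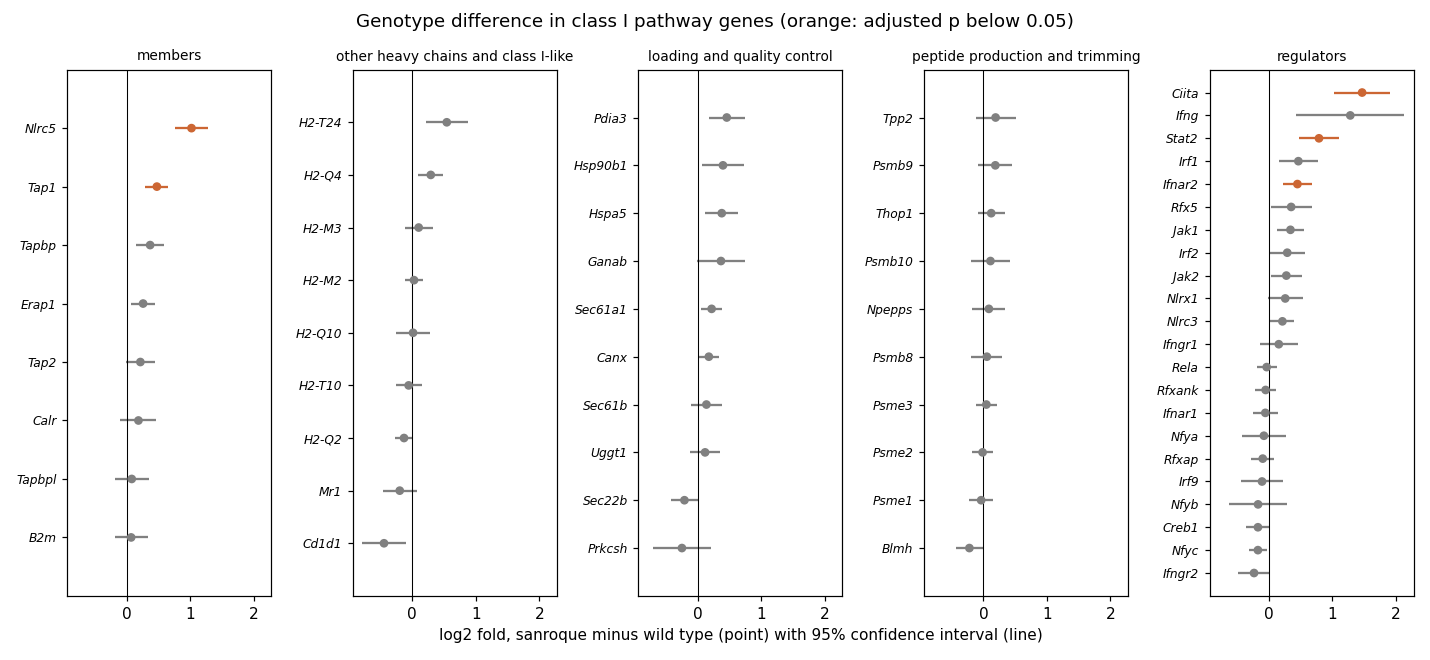
Log2 fold (sanroque minus wild type) with its 95% confidence interval from limma for the 8 members and for the 51 other pathway genes in 4 lists. Orange marks an adjusted p below 0.05, which Nlrc5, Tap1, Ciita, Stat2 and Ifnar2 reached, while the 10 genes of peptide production and trimming lie between -0.22 and 0.19.

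Interferon genes that act upstream were in the regulator list. Ifng, which encodes interferon gamma, read 4.33, 4.42 and 4.51 for wild type against 5.46, 6.62 and 5.02 for sanroque (log2 fold 1.28; limma adjusted p = 0.0957). Sanroque replicate 2 was the highest array. The wild-type values lie near the low end of the scale, where Xist read 4.02 to 4.17, so they may hold background alone and this fold is not an exact one. Irf1, which encodes an interferon-induced activator of class I genes, read 11.15, 11.08 and 10.90 for wild type against 11.23, 11.71 and 11.57 for sanroque (0.46; limma adjusted p = 0.0991). Neither passed. The factors that hold NLRC5 on promoters were not called. Rfx5 had a log2 fold of 0.35, Rfxap of -0.10 and Rfxank of -0.05 (limma adjusted p = 0.222, 0.630 and 0.823).

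Markers of other cells were set beside Nlrc5 and Tap1 array by array. Wild type replicate 2, with the highest B cell and myeloid medians of its group, read 11.15 for Nlrc5 and 10.47 for Tap1, between or close to the other wild-type values. In sanroque, replicate 1 had the highest B cell median (8.97) and the lowest Nlrc5 and Tap1. The myeloid median was 8.69, 8.36 and 8.69 in sanroque replicates 1 to 3, with Nlrc5 at 11.95, 12.20 and 12.34. The plasma cell medians there, 7.53, 7.65 and 8.19, ran in the same order as Nlrc5 and Tap1. In wild type the dendritic medians, 5.20, 5.56 and 5.57, also ran in that order. Neither list did so in the other group. The plasma cell medians were 5.69, 6.34 and 5.82 in wild type, and the dendritic ones 5.72, 5.92 and 5.73 in sanroque. The part of these cells in the Nlrc5 and Tap1 results was not tested. A score of the B cell and myeloid lists was then used as a covariate (n = 3 each). In this fit the log2 fold was 1.11 ± 0.40 (SE) for Nlrc5 and 0.51 ± 0.27 for Tap1. In limma the unadjusted p was 0.0299 and 0.102 and the adjusted p 0.682 and 0.706. The list medians do not overlap between the groups, so in this fit the score and the genotype can hardly be told apart. In it 0 of all 19938 genes passed in limma, and 1436 had an unadjusted p below 0.05. The log2 fold went from 1.47 to 0.39 ± 0.50 (SE) for Ciita and from 0.79 to 0.67 ± 0.47 for Stat2. It went from 0.45 to 0.011 ± 0.28 for Ifnar2 and from 0.26 to -0.086 ± 0.25 for Erap1. The median log2 fold of all genes went from -0.03 to 0.07.

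**Figure D4:**
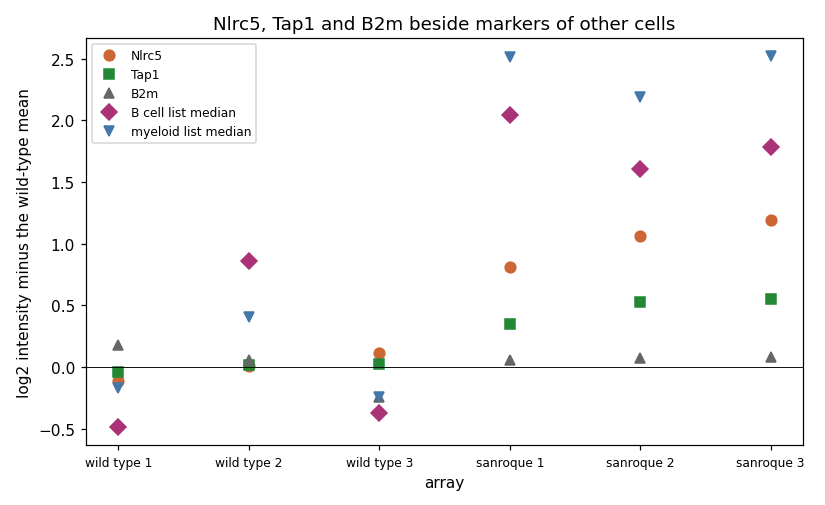
Log2 intensity minus the wild-type mean on each of the 6 arrays for Nlrc5, Tap1 and B2m and for the medians of the B cell and myeloid marker lists. Wild type replicate 2 is highest of its group in both drawn lists, with Nlrc5 and Tap1 near their wild-type means. Sanroque replicate 1 is highest of its group in the B cell list and lowest in Nlrc5 and Tap1. Not drawn are the plasma cell list, in the order of Nlrc5 and Tap1 in sanroque only, and the dendritic list, in that order in wild type only.

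The genes most like Nlrc5 across the 6 arrays, by the mean absolute difference of values centred on each gene's mean among 7759 genes with a mean log2 level of at least 7, were Itgal, which encodes a chain of the adhesion receptor LFA-1, then Gm1966 and Dennd5a. Their mean differences were 0.0755, 0.0755 and 0.0838 on the log2 scale. Itgal read 10.16, 10.19 and 10.20 for wild type against 11.00, 11.34 and 11.23 for sanroque. For Tap1 they were Cdca7l, Nckap1l and Ncoa1, at 0.0207, 0.0231 and 0.0261. Nckap1l, which encodes a blood cell subunit of the actin-regulating WAVE complex, read 10.38, 10.45 and 10.43 for wild type against 10.75, 10.89 and 11.00 for sanroque. The log2 folds of these 6 genes, 0.45 to 1.00, follow from this choice, which used the group difference too.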

How the data were processed

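Biotinylated cRNA was hybridized, per the labels' protocols. For each of 35399 probe sets the authors deposited a linear intensity on every array (9.56 to 31996). The submitters' processing notes name Partek but no role for it, and how background, summarization and normalization were handled is not given in the sources used here. Because array medians were alike (53.6 to 56.9), log2 was taken and nothing else was scaled. The annotation gave 1 symbol to 21789 probe sets, several to 1621 and did not list 11989, and the GRCm38.p6 gene table matched 19856 of the 19938 genes. Genotypes were compared with limma 3.58.1 (lmFit, eBayes) in R 4.3.3, without a filter, with code tested on simulated data. The number of arrays limits the precision.

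Named were all members, the called genes of each pathway list (in a list with 0 calls, the 2 of smallest p), Psmb8, Ifng, Irf1 and the Rfx genes, which were added after their values were seen, and the 3 genes most like Nlrc5 and Tap1. Members, lists and tests were chosen with earlier results of these data known. Alternatives covered the probe set rule, a filter, scaling, variance models, array weights, a replicate block and leaving out arrays. The fits without both arrays in doubt, with the cell score (mean of the B cell and myeloid list medians of an array) and of single probe sets were added after seeing the data. Other marker lists, called higher of measured in limma: 1 of 6 dendritic, 2 of 5 NK, 2 of 4 CD4 T cell and 0 of 1 erythroid. In these lists 0 were called lower, beside 3.26% of all genes called higher and 2.51% lower. An unadjusted p below 0.05 with a positive fold was reached by 3, 3, 4 and 0, beside 8.16% of all genes. The fold was negative in 2 dendritic genes (Zbtb46 and Siglech) and 2 NK genes (Ncr1 and Adgrg3). Figures were drawn with matplotlib 3.10.9.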

Additional observations from a re-analysis of the deposited data

How the results depend on the processing

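The median log2 fold of the members was 0.24 and lay between 0.19 and 0.31 under every alternative run but one, 0.33 without both arrays in doubt. Of the 8 members 2 were called, and 4 with quantile normalization, 1 with median centring, 5 with array weights, 0 by one-way ANOVA per gene without moderation, 1 without both arrays in doubt and 0 with the cell score as a covariate. Leaving out each array in turn gave 1 to 2. Of the 51 other pathway genes 3 were called, and 5 without genes of mean log2 level below 6, 9 with quantile normalization, 1 with median centring, 6 with an intensity trend, 25 with array weights (17 higher and 8 lower), 0 by ANOVA, 1 without both arrays in doubt and 0 with the cell score. Leaving out each array in turn gave 1 to 5. Over all 19938 genes the calls numbered 1151, and 1233 of the 9750 left by the filter, 1583 with quantile normalization, 1243 with an intensity trend, 631 with median centring, 4733 with array weights, 4 by ANOVA, 353 without both arrays in doubt and 0 with the cell score. Without wild type replicates 1 and 2 and sanroque replicates 1 and 2, each left out alone, they numbered 218, 489, 603 and 392. An unadjusted p below 0.05 was reached by 4 members and 14 pathway genes in the ANOVA, with 3068 genes in all, and by 1 member, 1 pathway gene and 1436 genes in all in limma with the cell score. The cause of these differences was not tested.

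With the replicate number as a block, 1 member, 1 pathway gene and 301 genes in all were called, and Tap1 was lost (adjusted p = 0.0761 in limma). Deviations of same-numbered arrays correlated at -0.05, -0.16 and -0.36 across genes, so the numbers were not taken to pair the samples. Nlrc5 passed in 14 of 16 alternatives and failed by ANOVA (adjusted p = 0.116) and with the cell score (0.682, limma). Tap1 failed in 8 of 16, median centring (0.0589, limma) included. Signs turned for B2m with array weights (-0.089), without wild type replicate 3 and with the cell score (-0.089), leaving out each array in turn giving -0.051 to 0.16. They also turned for Calr with array weights (-0.0051) and the cell score (-0.054), for Erap1 with the cell score (-0.086) and for Tapbpl without sanroque replicate 2 (-0.037 to 0.18 over the arrays left out). Quantile normalization and median centring turned no member's sign.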
